A study of Bubalus bubalis with 36 samples.

Results

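miR-21 is a microRNA (miRNA), a short RNA that lowers the output of the messenger RNAs it pairs with, and its level was followed here across the fat depots of buffaloes. Every row of the count table named bta-miR-21, with any arm suffix or none, was taken, which gave 2 members, miR-21-5p and miR-21-3p, of 1682 features in all. The 5p and 3p arms are the strands cut from opposite sides of the same hairpin precursor. Of the 1682 features, 695 carried bovine (bta) miRNA names and 987 were candidate loci without one. Small RNA was sequenced from adipose tissue of 6 buffaloes (Bubalus bubalis), and each animal gave the same 6 depots, for 36 libraries. The subcutaneous class held back (BSAT), sternal (SSAT) and inguinal (IAT) fat, and the visceral class held fat of the omentum (OAT), the pericardium (PCAT) and the kidney surroundings (perirenal, PRAT), with 6 libraries per depot and 18 per class. All animals shared 1 husbandry: weaning at 3 months, fattening from 15 months and slaughter at 20 months of age. The labels give no treatment, breed or genotype, and the study compared the depots.

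In mammals the 5p arm of miR-21 is the strand that is usually retained and loaded into the silencing complex, and the 3p arm is the passenger. miR-21-5p is induced by inflammatory signals through STAT3 and AP-1 and is matured faster under TGF-beta. Among its known targets are the translation inhibitor PDCD4, and SPRY1 and SMAD7, which restrain growth factor and TGF-beta signals. It is known for promoting fibrosis in heart, lung and kidney of mice and humans, and, in cultured human fat stem cells, for aiding the formation of fat cells through TGFBR2. In humans its gene lies at the end of the protein-coding gene VMP1.

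Library totals ran from 9484589 to 13920998 counts with a median of 12525362. The markers of fat-rich tissue were abundant: the summed level of 11 listed miRNAs (12 features, among them miR-143, miR-26a and let-7i) ranged from 93207 to 242043 RPM (counts scaled to a library total of 1000000) in subcutaneous and from 103474 to 236380 RPM in visceral libraries. miRNA markers do not separate fat cells from the other cells of fat tissue. Fewer cells of a type and less RNA per cell cannot be told apart in tissue samples such as these.

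miR-21-5p was an abundant miRNA, though far below the 5 most abundant named ones (means of 47171.5 to 59772.5 RPM), and miR-21-3p was close to absent. Over the 36 libraries miR-21-5p averaged 4272 ± 3373 RPM (SD, n = 36), which was 0.429% of all counts. It ranked 43 among all features by mean level, behind 33 named miRNAs and 9 candidate loci. Its neighbours in the order of named miRNAs were miR-22-3p at 4326 ± 986 RPM above it and miR-99b at 3864 ± 2151 RPM below it (SD, n = 36). Read counts of different miRNAs also carry the preferences of library preparation, which were not corrected. The rank within a library was not fixed: it was 15 in the omental library of animal 2 and 71 in the sternal library of animal 1, with a median of 45.

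The first question was whether the level of miR-21-5p differs between the depots. In the back depot miR-21-5p had 2675 RPM in the lowest, 2885 RPM in the median and 6198 RPM in the highest library. The sternal depot had 1411 RPM in its lowest library, a median of 3075 RPM and 6125 RPM in its highest. In inguinal fat the lowest library had 1321 RPM, the median was 3618 RPM and the highest had 5555 RPM. The lowest back library lay above the lowest sternal and inguinal ones, the ranges of the 3 subcutaneous depots overlapped, and animal 3 gave the highest back and sternal libraries. In omental fat the lowest library had 1109 RPM, the median was 2933 RPM and the highest, that of animal 2, had 16790 RPM. Pericardial fat had 1273 RPM in its lowest library, a median of 2858 RPM and 10015 RPM in its highest, that of animal 3. In perirenal fat the lowest library had 1392 RPM, the median was 4224 RPM and the highest, again of animal 3, had 13102 RPM. Every depot overlapped every other, and the visceral depots extended both above and below the subcutaneous ones.

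**Figure D1:**
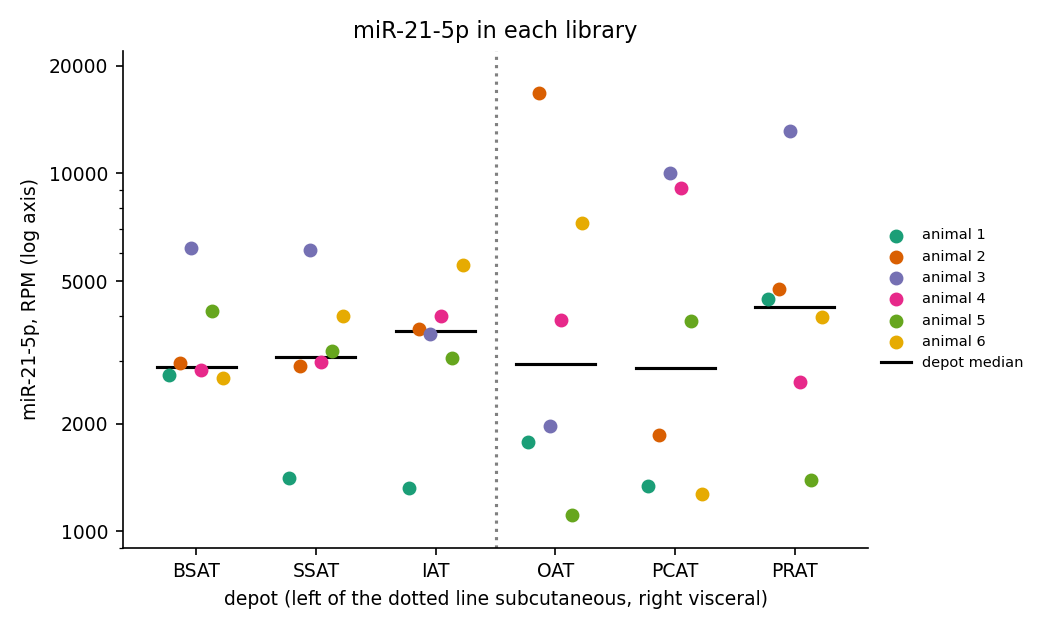
miR-21-5p in each of the 36 libraries, in RPM on a log axis, by depot; points are libraries coloured by animal and bars are depot medians. The depot medians lie between 2858 and 4224 RPM, while single visceral libraries reach from 1109 to 16790 RPM.

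By class, the mean of miR-21-5p was 3513 ± 1360 RPM for the 18 subcutaneous and 5031 ± 4512 RPM for the 18 visceral libraries (SD). The medians were 3113 RPM in subcutaneous and 3878 RPM in visceral libraries. The fitted log2 difference, subcutaneous minus visceral, was −0.27 ± 0.30 (SE), with a 95% interval from −0.88 to 0.35. It did not pass edgeR's quasi-likelihood test (Benjamini-Hochberg adjusted p = 0.586), in which 16.5% of the 667 features tested were called at an adjusted p under 0.05. Mean RPM was lower in subcutaneous fat in 5 of 6 animals. The mean of log2 RPM differed by −0.13 between the classes. The mean of log2 CPM (counts scaled like RPM, but to library totals corrected by TMM factors) differed by 0.079. It was lower in subcutaneous fat in 4 of 6 animals, and higher in animal 5 (by 1.16) and animal 6 (by 0.50). Without the omental library of animal 2 the fitted difference was −0.048, and without that library and the perirenal library of animal 3 together it was 0.069 ± 0.28 (adjusted p = 0.929).

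Ordered by mean level, the depots were omental (5468 ± 5979 RPM), perirenal (5052 ± 4141 RPM), pericardial (4572 ± 3981 RPM), back (3584 ± 1392 RPM), inguinal (3525 ± 1375 RPM) and sternal fat (3430 ± 1564 RPM; SD, n = 6 each). No neighbours in this order differed beyond their spread, and neither did its ends. Ordered by the median, perirenal fat came first and pericardial fat last, so the order was not stable. In edgeR's F test over the 6 depots miR-21-5p had an adjusted p of 0.983, in a test that called 13.9% of features. Among the 3 subcutaneous depots the adjusted p was 0.993 (0.6% of features called), and among the 3 visceral depots it was 0.974 (1.95% called). None of the 6 contrasts of a depot against the mean of the other 5 was called, where 4.27% of such tests over all features were. Their log2 differences ran from −0.26 ± 0.41 in inguinal to 0.24 ± 0.40 in omental fat, and the intervals from −1.10 to 1.05 leave room for differences of up to about that size. Of the 15 pairs of depots 0 were called for miR-21-5p by edgeR's quasi-likelihood test, where 2.83% of such tests over all features were; the smallest unadjusted p was 0.435, and DESeq2 and limma also called 0 pairs. The largest pairwise log2 difference was 0.41 in size, between inguinal and omental fat, with an SE of 0.53.

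**Figure D2:**
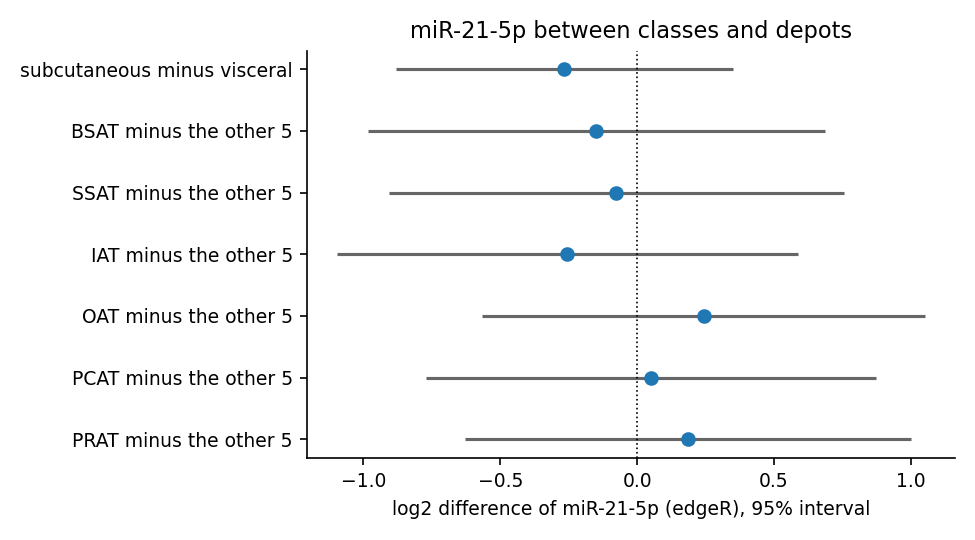
Fitted log2 difference of miR-21-5p (points) with its 95% interval (bars) for subcutaneous minus visceral fat and for each depot minus the mean of the other 5. Every interval includes 0, and the class difference is −0.27.

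The depot accounted for little of the variation of miR-21-5p. In log2 CPM, differences between depot means held 1.91% of its sum of squares, against a median of 18.6% over the 667 tested features, and 0.75% of features had a smaller share. Differences between animals held 25.9% (median over features 20.0%), and 72.2% was left to single libraries (median over features 56.0%). Animal means ran from 2174 ± 1243 RPM in animal 1 to 6830 ± 4114 RPM in animal 3 (SD, n = 6 depots each). The difference among animals did not pass the F test of the edgeR fit with the animal as a block (adjusted p = 0.223), where 11.7% of features were called. Within 1 animal the highest depot exceeded the lowest by 3.38-fold to 9.05-fold.

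The level of miR-21-5p did not pass a test between the classes, while its spread was larger in value in visceral fat. The comparison of spread was chosen after the values were seen. Within depots the SD of log2 CPM was 0.57 in subcutaneous and 1.21 in visceral fat. The median feature had 0.85 in subcutaneous and 0.90 in visceral fat, and 1.95% of features had a lower ratio of subcutaneous to visceral SD than miR-21-5p. Of the 18 visceral libraries 5 lay above the highest subcutaneous library (6198 RPM): the omental libraries of animals 2 and 6, the pericardial libraries of animals 3 and 4 and the perirenal library of animal 3. Another 2, the omental library of animal 5 and the pericardial library of animal 6, lay below the lowest subcutaneous library (1321 RPM), and 11 lay within that range. The high depot was not the same in each animal, since omental fat was highest in animals 2 and 6, perirenal fat in animals 1 and 3, pericardial fat in animal 4 and back fat in animal 5.

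Set within animals, the highest of the 3 subcutaneous depots exceeded the lowest by 1.12-fold to 1.98-fold in TMM-scaled CPM, and the highest of the 3 visceral depots exceeded the lowest by 2.95-fold to 7.98-fold. The range was smaller in subcutaneous fat in 6 of 6 animals, by 1.55 ± 0.70 log2 units (SD, n = 6). The exact two-sided sign-flip permutation test over animals gave p = 0.031, the smallest that 6 animals allow, in a comparison that was chosen after the values were seen. Without any 1 animal p was 0.0625, the smallest that 5 allow. Among all tested features 36 (5.4%) had the smaller range in subcutaneous fat in 6 of 6 animals and 11 had the larger. Without the omental library of animal 2 and the perirenal library of animal 3 the range was still smaller in subcutaneous fat in 6 of 6 animals, by 1.24 log2 units. Pooled over the depots of a class, the SD of log2 CPM was 0.54 in 18 subcutaneous and 1.15 in 18 visceral libraries. Among the 28 libraries whose names carry the letter B, this pooled SD was 0.56 in 17 subcutaneous and 1.43 in 11 visceral libraries. The meaning of the letter is not given.

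**Figure D3:**
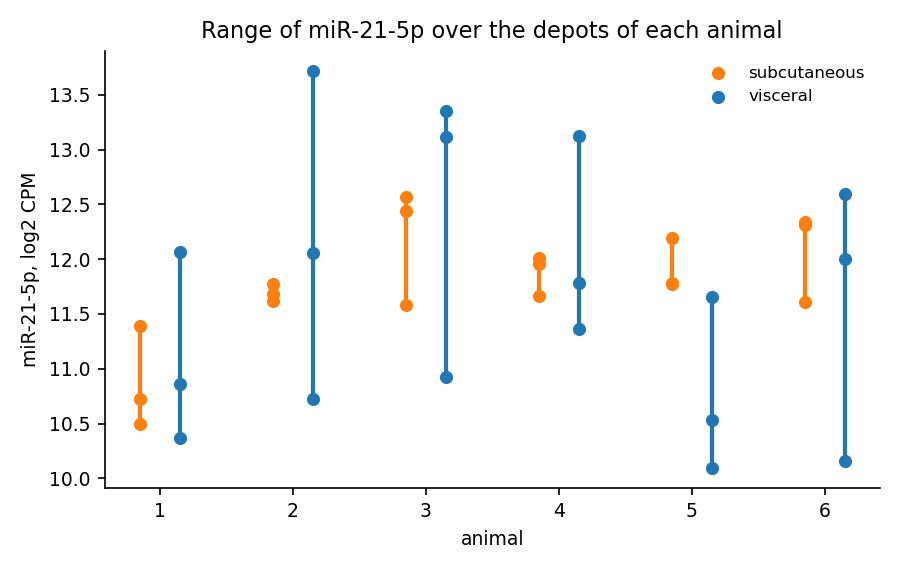
miR-21-5p in log2 CPM in the 3 subcutaneous (left, orange) and 3 visceral (right, blue) depots of each animal; points are libraries and bars join the lowest and highest. The visceral bar is the longer in each of the 6 animals.

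Levels of miR-21-5p were set beside those of 211 named miRNAs with a mean of at least 10 RPM, of which 9 (4.27%) are on the list of miRNAs responsive to inflammation. Of the 5 closest to miR-21-5p, 4 are on that list, which was chosen with earlier results of these data known. The closest over 36 libraries was miR-146b, a feedback inhibitor of Toll-like receptor signalling, with a Spearman correlation of 0.68 in log2 CPM. That scale was used for the correlations in this paragraph and the next, unless RPM is named. miR-146a, of the same family, followed with 0.65. miR-155, which immune cells induce on activation, had 0.54. miR-221, also on the list and known from vessel wall and proliferating cells, had 0.50. miR-16a, a member of the miR-15/16 family known for slowing the cell cycle, also had 0.50. These correlations are descriptions over libraries that share animals and depots, and no p is given. The median over the 211 miRNAs was −0.044. In RPM the correlation over 36 libraries was 0.72 for miR-146b, 0.69 for miR-146a and 0.58 for miR-155. In log2 CPM, after the depot means were removed, it was 0.71 for miR-146b, 0.76 for miR-146a and 0.59 for miR-155. Without the omental library of animal 2 and the perirenal library of animal 3, the libraries farthest from the median, it was 0.62 for miR-146b, 0.58 for miR-146a and 0.45 for miR-155. Only 3 of the 5 closest miRNAs stayed among the 5 closest there.

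For miR-146b, miR-146a and miR-155 the relation was present in each class and larger in value in visceral fat, and the difference was not tested. miR-146b had a correlation with miR-21-5p of 0.62 in 18 subcutaneous and 0.79 in 18 visceral libraries. For miR-146a it was 0.43 in subcutaneous and 0.76 in visceral libraries. For miR-155 it was 0.55 in subcutaneous and 0.62 in visceral libraries. In the same order it was 0.43 and 0.57 for miR-221, and 0.18 and 0.82 for miR-16a, where it was weak in subcutaneous fat. The omental library of animal 2, highest in miR-21-5p, was also the highest of 36 in miR-146b (498 RPM, against a median of 25.8 RPM), miR-155 (8892 RPM, median 896 RPM) and miR-221 (85.6 RPM, median 5.16 RPM). The perirenal library of animal 3, the second in miR-21-5p, was also the second in miR-146b (324 RPM) and miR-155 (6206 RPM). The pericardial library of animal 4 stood at place 4 of 36 in miR-21-5p (9089 RPM) and at place 6 in miR-146a (38.8 RPM, median 15.9 RPM), while its miR-146b (26.2 RPM) and miR-155 (891 RPM) were near the medians. The other 5 of the 9 listed miRNAs had lower correlations over 36 libraries: 0.40 for miR-223, abundant in myeloid cells, 0.057 for miR-125b, 0.022 for miR-9-5p, −0.089 for miR-22-3p and −0.091 for miR-22-5p. The lowest correlations were those of miR-195 (−0.49), miR-181a (−0.44) and miR-30c (−0.42).

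**Figure D4:**
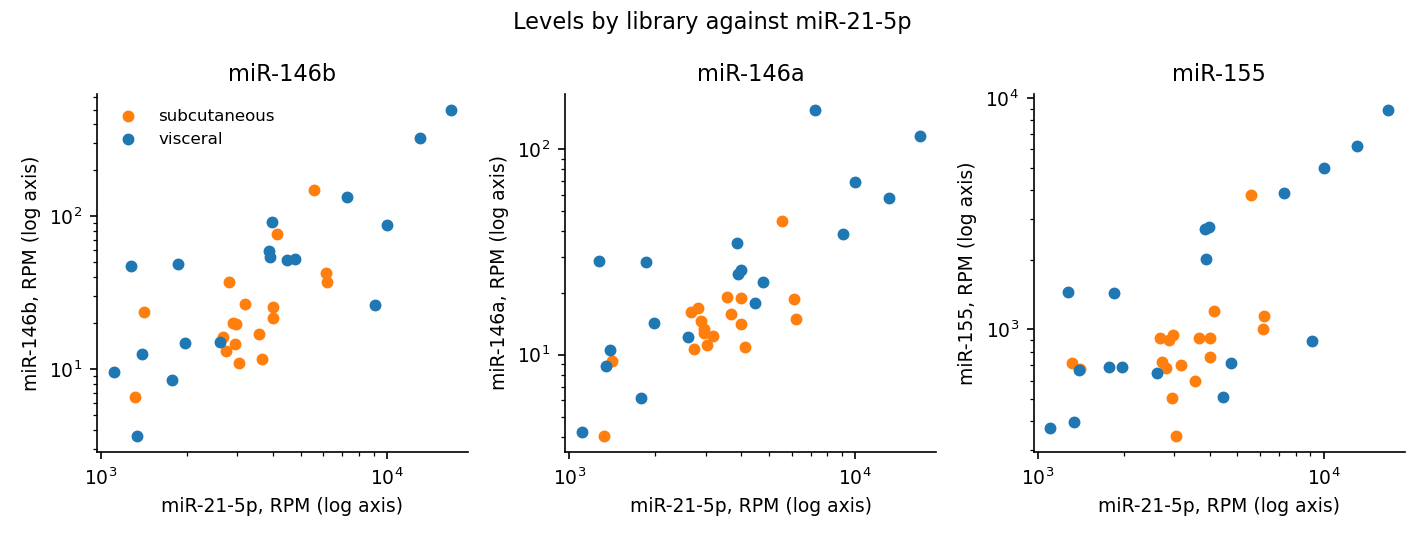
Levels of miR-146b, miR-146a and miR-155 (RPM, log axes) against miR-21-5p in 18 subcutaneous (orange) and 18 visceral (blue) libraries. The omental library of animal 2 and the perirenal library of animal 3, the highest in miR-21-5p, lie at the upper right for miR-146b and miR-155, while 1 pericardial library at 9089 RPM has 26.2 RPM of miR-146b, 38.8 RPM of miR-146a and 891 RPM of miR-155.

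The summed markers of white blood cells moved with miR-21-5p in visceral fat, and single markers varied. The summed level of the leukocyte list (7 precursors and 8 features, miR-146a and miR-155 among them) ranged from 1757 to 30220 RPM with a median of 4545 RPM in subcutaneous, and from 3958 to 56637 RPM with a median of 9804 RPM in visceral libraries. Most of that sum was miR-150, a lymphocyte miRNA. The Spearman correlation of the summed list with miR-21-5p was 0.038 over 18 subcutaneous and 0.68 over 18 visceral libraries, in RPM as for each list below. Single members were correlated in log2 CPM, so their values are on another scale than those of the sums. For miR-150 alone the correlation was −0.075 in subcutaneous and 0.54 in visceral libraries. In the same order it was 0.14 and 0.63 for miR-142-3p and −0.011 and 0.50 for miR-142-5p. For miR-342 it was −0.063 and 0.14, and for miR-223 it was 0.46 and 0.36. Of the 5 visceral libraries above the subcutaneous range of miR-21-5p, 4 stood at places 1, 2, 4 and 6 of 36 in the leukocyte sum, and the pericardial library of animal 4 stood at place 21. One of the 8 features was at 0 in some library. The epithelial and mesothelial list (6 features) summed to 4.02 to 84.9 RPM (median 5.82) in subcutaneous and 5.24 to 3153 RPM (median 133) in visceral libraries, with 2 features at 0 in some library, and correlated by 0.12 with miR-21-5p in subcutaneous and by 0.39 in visceral libraries. The smooth muscle and stroma list correlated by 0.39 in subcutaneous and −0.24 in visceral libraries, and most of its sum was miR-143 (mean 28411 RPM). In log2 CPM its single members ran from −0.38 (miR-214) to 0.26 (miR-199a-5p) in subcutaneous libraries. In visceral libraries they ran from −0.50 (miR-214) to 0.12 (miR-199a-5p). The endothelial miR-126 arms, a different list with different levels, gave the same values as the smooth muscle and stroma sum. The erythroid list correlated by 0.034 in subcutaneous and −0.33 in visceral libraries. The skeletal and cardiac muscle list correlated by −0.18 in subcutaneous and −0.22 in visceral libraries. The list of miRNAs abundant in fat-rich tissue correlated by 0.27 in subcutaneous and −0.36 in visceral libraries. Its sum was mainly miR-26a, let-7i and miR-143 (means of 28411.1 to 59772.5 RPM). Of the 5 high visceral libraries 4 stood at places 22 to 32 of 36 in this sum and the perirenal library of animal 3 at place 13. In log2 CPM, single members with a mean of at least 10 RPM ran from −0.33 (miR-148a) to 0.29 (miR-378) in subcutaneous libraries. In visceral libraries they ran from −0.55 (miR-378) to 0.55 (miR-103). The liver list, which holds miR-122 alone, correlated by −0.0021 in subcutaneous and −0.067 in visceral libraries. The part of these cell types in the level of miR-21-5p was not tested.

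miR-21-3p was counted 63 times in all, against 1916615 counts of miR-21-5p. Per library it had 0 to 6 counts, with 0 in 15 libraries and at least 1 in 21. A count of 0 allows a level of up to 0.216 to 0.279 RPM, depending on the library (3 counts of its total), and the highest level seen was 0.468 RPM. Its mean was 0.142 ± 0.155 RPM (SD, n = 36), rank 445 of 695 named miRNAs. Its mean was 0.144 ± 0.156 RPM in subcutaneous fat and 0.140 ± 0.158 RPM in visceral fat (SD, n = 18 each). The arm did not pass the filter on low counts and was not tested with the other features. Tested without a filter, it was called in 0 of 22 contrasts between classes and depots by edgeR's quasi-likelihood test, with adjusted p-values of 0.683 and above.

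Over all libraries there were 30422 counts of the 5p arm for each count of the 3p arm. miR-21-3p made up 0.00329% of the counts of both arms, with an exact (Clopper-Pearson) 95% interval from 0.00253% to 0.0042%. Intervals and limits of this kind cover counting error only. Of 55 precursors with both arms named in the table, 1 was more one-sided, miR-149, with 239760 counts of its 5p and 4 of its 3p arm. The next after miR-21 was miR-99a, with 2666799 counts of the 5p and 1631 of the 3p arm. The log2 ratio of the major to the minor arm was 14.89 for miR-21, with a median of 2.74 over the 55 precursors and of 8.43 over the 10 whose major arm reached 1000 RPM. How the reads of a minor arm were matched to the bovine names is not given in the sources used here, and its part in this ratio was not tested.

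**Figure D5:**
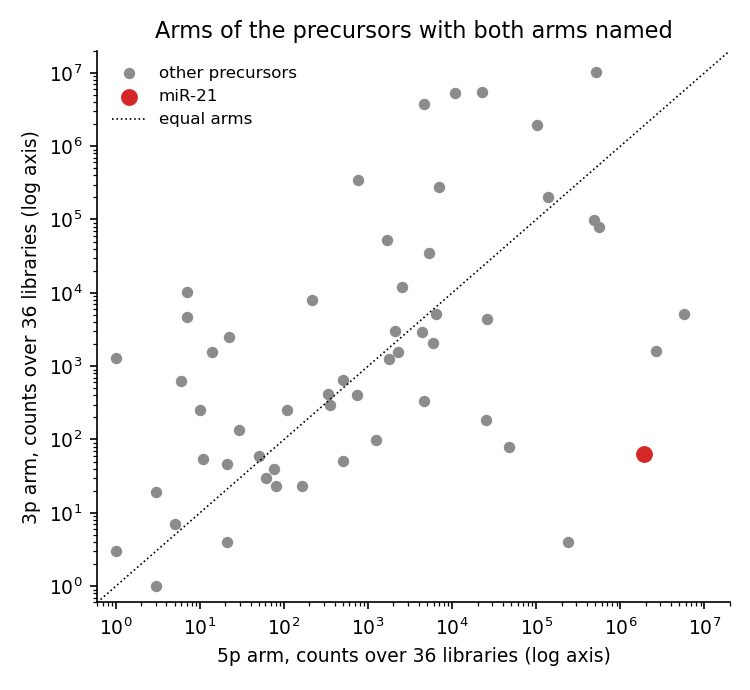
Counts of the 5p arm (horizontal) and the 3p arm (vertical) summed over 36 libraries, on log axes, for the 55 precursors with both arms named; the dotted line marks equal arms. miR-21 lies far below the line, at 1916615 counts of 5p and 63 of 3p.

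Per 1000000 counts of the 5p arm, the 3p arm had 28.8 counts in back (exact Poisson 95% interval 12.4 to 56.8), 33.5 in sternal (15.3 to 63.5) and 59.2 in inguinal fat (33.1 to 97.6). In visceral fat it had 24.6 such counts in omental (11.8 to 45.3), 44.2 in pericardial (24.7 to 72.9) and 16.2 in perirenal fat (5.94 to 35.2). Pooled by class, the rate was 40.0 (27.4 to 56.5) in subcutaneous and 27.8 (18.9 to 39.4) in visceral fat. All intervals of the depots overlap one another. The arm ratio of a library, log2 of 5p over 3p with 0.5 added to both, had a mean of 14.78 ± 1.51 over 18 subcutaneous and 14.86 ± 1.23 over 18 visceral libraries (SD). Its difference was −0.08, higher in subcutaneous fat in 2 of 6 animals, with p = 0.906 in an exact two-sided sign-flip permutation test over animals, whose smallest p is 0.031. Over the 6 depots a permutation test within animals gave p = 0.554, and no depot passed the test against the other 5 (adjusted exact sign-flip p from 0.688 to 0.844). After adjustment over 6 depots, a single depot at the smallest p could not pass alone. The sign-flip test therefore cannot decide whether a single depot stands apart. With so few counts this ratio follows the 3p count (Spearman −0.76 over 36 libraries).

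miR-21 belongs to lists of miRNAs linked to fibrosis, fat cell formation and inflammation, and some other members of these lists were called between the classes. In the class comparison 16.5% of all 667 features were called, 7.2% higher and 9.3% lower in subcutaneous fat. The median log2 difference over all features was −0.09. The lists were not tested as sets against these shares. The tested members of the lists that promote fibrosis, aid fat cell formation or respond to inflammation include miR-21-5p itself. Of the called features 43.6% were higher in subcutaneous fat, against 18.8% when libraries were scaled by their totals alone (median −0.29) and 19.3% with limma on log2(RPM + 1) (median −0.18). Of the 9 tested features reported to promote fibrosis, 2 were higher in subcutaneous fat and 0 lower, with a median log2 difference of 0.34. They were the stromal miRNAs miR-214 (1.49 ± 0.42, adjusted p = 0.0145) and miR-199a-5p (0.83 ± 0.23, adjusted p = 0.0145), which share a precursor transcript in mice and humans. miR-199a-5p averaged 15.4 RPM. The more abundant arm on that list, miR-199a-3p (611 RPM), was not called by edgeR's test (0.34 ± 0.24, adjusted p = 0.348). Of the 26 tested features reported to restrain fibrosis, 0 were higher and 5 lower, with a median of −0.01. All 5 were of the miR-200 family, which keeps cells epithelial, led by miR-200b (−5.42 ± 1.0, adjusted p = 2.68e-04) and miR-200a (−5.16 ± 0.95, adjusted p = 2.68e-04). The tested miR-29 and miR-30 members of that list, which restrain collagen genes and connective tissue growth factor, were not called.

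Of the 29 tested features reported to aid fat cell formation, 1 was higher, miR-103 (0.52 ± 0.14, adjusted p = 0.0125), and 3 were lower in subcutaneous fat, miR-17-5p (−1.36 ± 0.43, adjusted p = 0.0254), miR-335 and miR-378b, with a median of 0.06. Of the 15 tested features reported to hold it back, 4 were higher, miR-27a-3p (0.81 ± 0.15, adjusted p = 1.96e-04), miR-27a-5p, miR-27b and miR-224, and 1 was lower, miR-138, with a median of −0.31. Of the 13 tested features listed as responsive to inflammation, 2 were higher in subcutaneous fat, miR-22-5p (0.72 ± 0.11, adjusted p = 1.69e-05) and miR-132 (0.58 ± 0.20, adjusted p = 0.0422). miR-22-5p averaged 230 RPM. The more abundant arm, miR-22-3p (4326 RPM), was not called by edgeR's test (−0.0055 ± 0.12, adjusted p = 0.983). In that list 3 were lower, miR-9-5p (−2.27 ± 0.27, adjusted p = 2.67e-07), miR-147 and miR-146a (−0.96 ± 0.33, adjusted p = 0.0436), and the median was −0.31. All adjusted p-values here are from edgeR's quasi-likelihood test over all features. miR-146b (−1.05 ± 0.48, adjusted p = 0.126) and miR-155 (−0.92 ± 0.37, adjusted p = 0.0847), which followed miR-21-5p over libraries, were not called between the classes. With the animal as a block miR-214 (0.95, adjusted p = 0.0551), miR-17-5p (−1.09, adjusted p = 0.0570), miR-378b (−1.41, adjusted p = 0.0527) and miR-141, 1 of the 5 miR-200 family members (−1.22, adjusted p = 0.0776), were not called by edgeR. Among letter B libraries alone fewer list members were called than in all libraries, and so were fewer of all features. Calls of miR-335, miR-146a, miR-378b and miR-132 were lost in most of the alternatives run (39 of 54, 36 of 55, 32 of 53 and 31 of 54, in that order).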

How the data were processed

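Per the labels' protocols, the RNeasy Lipid Tissue Mini Kit served for RNA extraction and the TruSeq RNA LT kit v2 for the libraries. The authors deposited raw read counts per miRNA and library, and RPM values, which equalled the deposited count scaled to a library total of 1000000 (largest difference 4.79e-06). Aligner, caller and build: not given in the sources used here. The submitters' processing notes list DESeq2 1.24.0 without saying its role. A row without a name (0 counts) was left out.

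Depots and animals were taken from the labels. The quasi-likelihood test of edgeR 4.0.16 was run on the counts in R 4.3.3 (TMM factors 0.745 to 1.26, filterByExpr with a minimum count of 10, 667 features kept, 1 coefficient per depot, 30 residual degrees of freedom) on all 36 libraries. Adjustment was by Benjamini-Hochberg over all features, with a threshold of 0.05. The SE is the size of the difference divided by the square root of F, and tests were two-sided. The class contrast subtracted the average of 3 visceral depots from that of 3 subcutaneous ones. log2 CPM used a prior count of 2; levels are deposited RPM. The fit was tested on simulated counts. Each of the 6 animals was sampled at all depots, which pairs libraries by animal. The mean correlation of deviations from depot means was 0.198 within animals and −0.039 across animals (64 of 90 same-animal pairs over 0.1). No libraries agreed within sampling noise.

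The members, lists and tests were chosen with earlier results of these data known. Named miRNAs were the members, the 5 most and 3 least correlated with miR-21-5p, its neighbours in rank and arm ratio, and members of 5 lists called between the classes. Cell type markers and the other members of the inflammation list, such as miR-150, miR-223 and miR-125b, were named outside this rule, after their values were seen. The miRNAs closest to miR-21-3p were not sought, since it did not pass the filter. The RPM of the arms miR-21-5p and miR-21-3p had a Spearman correlation of 0.39. The rule on shared seeds was not applied, since no mature sequences were used here. Alternatives were RLE factors, library totals, no filter, 10 CPM as the lowest mean, a block for the animal, the letter (A in 8 libraries, 7 of them visceral), DESeq2 1.42.0, limma 3.58.1 on log2(RPM + 1), 2 groups of 18, counts summed per animal and class, and leaving out animals or libraries.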

Additional observations from a re-analysis of the deposited data

Results flagged for a closer look

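Among perirenal libraries, miR-21-5p of animal 3 (13102 RPM) lay far from the others, which had 1392 to 4762 RPM: its gap to the nearest was 0.712 of the depot's range, above the critical value of 0.625 for 6 samples. This was 1 of 12 groups checked (6 depots for each arm), and chance flags about 1 in 20 groups of normally distributed values. The check used RPM. In log2 CPM, where it was not run, this library had 13.35 and the other perirenal ones 10.53 to 12.07. There the gap was a smaller part of the depot's range. The same library held the second highest levels of 36 in miR-155 (6206 RPM) and in the summed leukocyte markers (34391 RPM). The omental library of animal 2 (16790 RPM), the highest of all, had a gap of 0.607 of its depot's range and was not flagged.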

How the results depend on the processing

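The result that miR-21-5p was not called between the classes, among the depots or in any pair of depots held under every alternative run, with a lowest adjusted p of 0.269 for the class difference (library totals alone, −0.51) and 0.507 for a depot. The class difference ran from −0.45 to −0.048 when 1 animal or library was left out, and was 0.069 without the PRAT library of animal 3 and the OAT library of animal 2, a setting chosen after seeing the data. There BSAT (0.045), SSAT (0.13), OAT (−0.24) and PRAT (−0.13) against the other depots also changed sign. PCAT changed sign with RLE factors (−0.025), DESeq2 (−0.025), a mean of at least 10 CPM (−0.033), limma (−0.097) and the animal as a block (−0.060), and SSAT with RLE factors (0.014) and DESeq2 (0.014). Leaving out 1 animal gave −0.17 to 0.098 for SSAT, −0.49 to 0.61 for OAT, −0.46 to 0.30 for PCAT and −0.16 to 0.47 for PRAT. The cause of these changes was not tested.

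With the animal as a replicate block the class difference of miR-21-5p was −0.18 (adjusted p = 0.714 in edgeR's quasi-likelihood test). Beside the 4 lost calls already given, the other called members of the lists in the main analysis kept theirs. The arm ratio between the classes ran from −0.53 to 0.30 when 1 animal was left out. For BSAT it ran from −0.25 to 0.56 and for SSAT from −0.084 to 0.85, and for PRAT it was −0.33 in letter B libraries alone (0.73 in all libraries). The ratio was not called under any alternative, including no replicate block and 1 added to both arms. Without 1 animal its class and depot sign-flip tests could not be called, since the smallest p that 5 animals allow is 0.0625. The ratio without an added count could not be computed, since miR-21-3p was 0 in some libraries. The difference in range within animals, subcutaneous minus visceral, was −1.70 to −1.30 log2 units without 1 animal, where the smallest p that 5 animals allow is 0.0625, and −0.80 as a difference of SDs.

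The number of features called between the classes was 110, or 71 with the letter as a covariate, 39 within letter B, 22 with counts summed per animal and class, 44 with that sum and a replicate block, and 56 (without animal 4) to 129 with 1 animal or library left out. The called members of the 5 lists were 21, or 9 within letter B, 9 with summed counts, 12 with summed counts and a block, and 12 (without animal 4) to 22 with 1 left out. A miRNA on several lists was counted once, and these counts were not tested against those of all features. Of the 5 closest miRNAs, 4 were shared with Pearson correlation or deposited RPM, and 3 without the 2 libraries. Depth limits miR-21-3p, not miR-21-5p, whose lowest library had 13175 counts.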
